A study of Mus musculus with 2 samples.

Results

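Expression of the miR-23, miR-24 and miR-27 clusters was examined at E13.5 in the 3rd mammary gland of ICR mouse embryos (the gland) and in their inter mammary gland region (the flank). The members were the miRNAs listed on both arrays under the names mmu-miR-23a, mmu-miR-27a, mmu-miR-23b, mmu-miR-27b and mmu-miR-24, which are 5 of the 696 miRNAs measured. They were picked out by these names. The embryos were untreated, and the labels give neither the number of embryos nor their sex. For each region, 100 ng of total RNA from the dissected tissue was labelled with Cy3 and hybridized to a single Agilent miRNA array. At this stage the gland is an epithelial bud set in mesenchyme, and neither the labels nor the methods say that these were separated. The flank tissue, which serves as the control, lies between the 3rd gland and the 4th. Both arrays were on the same slide and in the same scan. With 1 array per region there is no replicate check of any difference below and no test was possible. Errors given are technical, taken over the spots of an array.

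Each of the 2 clusters is a short stretch of DNA from which several miRNAs are cut out of a shared primary transcript. The a cluster yields miR-23a, miR-27a and miR-24, and the b cluster yields miR-23b, miR-27b and miR-24. miR-23 and miR-27 are known for roles in blood vessel growth, miR-27 also restrains fat cell differentiation by acting on Pparg, and miR-24 acts on regulators of the cell cycle. A miRNA recognizes its target mRNAs mainly through its seed, bases 2 to 8 from the 5′ end, so members with the same seed are expected to share many targets. In RefSeq (GRCm38.p6) the a cluster spans 404 bases of the plus strand of chromosome 8, with the genes in the order Mir23a, Mir27a and Mir24-2. The b cluster spans 792 bases of the plus strand of chromosome 13, in the order Mir23b, Mir27b and Mir24-1, and lies within the bounds of the protein-coding gene Aopep.

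Mature sequences of 4 of the 5 members were matched in RefSeq, all of them 3p arms of their hairpins. They are shown because the seed groups the members into families, while the array gives a and b separate probes. Capitals mark the seed. miR-23a lies at chr8:84208563-84208583, miR-27a at chr8:84208727-84208747 and miR-27b at chr13:63300760-63300780. miR-24 is encoded identically at chr8:84208875-84208896 and chr13:63301251-63301272, so its signal is the sum of both clusters.
mmu-miR-23a: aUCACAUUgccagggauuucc
mmu-miR-27a: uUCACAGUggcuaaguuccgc
mmu-miR-27b: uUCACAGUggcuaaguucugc
mmu-miR-24: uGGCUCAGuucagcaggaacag
miR-27a and miR-27b have the same seed and differ only by C19U, with positions counted from 1 at the 5′ end and the base of miR-27a written first. In the next lines the capital marks that base.
mmu-miR-27a: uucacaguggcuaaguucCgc
mmu-miR-27b: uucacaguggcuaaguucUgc
Whether the probes of an a miRNA also bind its b partner was not tested.

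All members were bright on both arrays. Each was read by 2 probes of 10 spots, and all 100 of their spots were scored well above background in either region. The background-subtracted signal of single spots ran from 519 to 3045 in the gland and from 369 to 2699 in the flank, against negative control spots with a mean of 3.81 ± 5.28 (SD over 432 spots) and 2.23 ± 5.07 (SD over 428 spots). No spot was saturated. A probe counted as detected if over 50% of its spots on an array were well above background. To put the arrays on the same footing, signals were expressed relative to the 75th percentile over probes that both arrays detected, so that a scaled signal of 1 equals that percentile. By this rule 284 miRNAs were detected in both regions, and their median log2 ratio of the gland over the flank was 0.048. Probes differ in brightness for reasons other than RNA amount, so the members were set against each other by their ratios and not by their levels.

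miR-23a and miR-27a, the members made only by the a cluster, were higher in the gland, while miR-23b and miR-27b of the b cluster lay near the median of all detected miRNAs. The log2 ratio was 0.49 ± 0.015 for mmu-miR-23a and 0.35 ± 0.026 for mmu-miR-27a (technical SE). For mmu-miR-23b it was 0.026 ± 0.031 and for mmu-miR-27b -0.017 ± 0.028, both within 1 SE of 0 with the scaling used here. That SE leaves out the error of the scaling, and 4 other scalings put miR-23b at 0.14 to 0.22 and miR-27b at 0.10 to 0.14. It also leaves out disagreement between probes. The first and second probes stood at -0.00034 ± 0.039 and 0.116 ± 0.012 for miR-23b, and at -0.044 ± 0.036 and 0.074 ± 0.024 for miR-27b. mmu-miR-24, which both clusters make, lay between the a and b members at 0.11 ± 0.028. In linear terms the ratios of the members, in the order given here, were 1.40, 1.28, 1.02, 0.988 and 1.08.

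**Figure D1:**
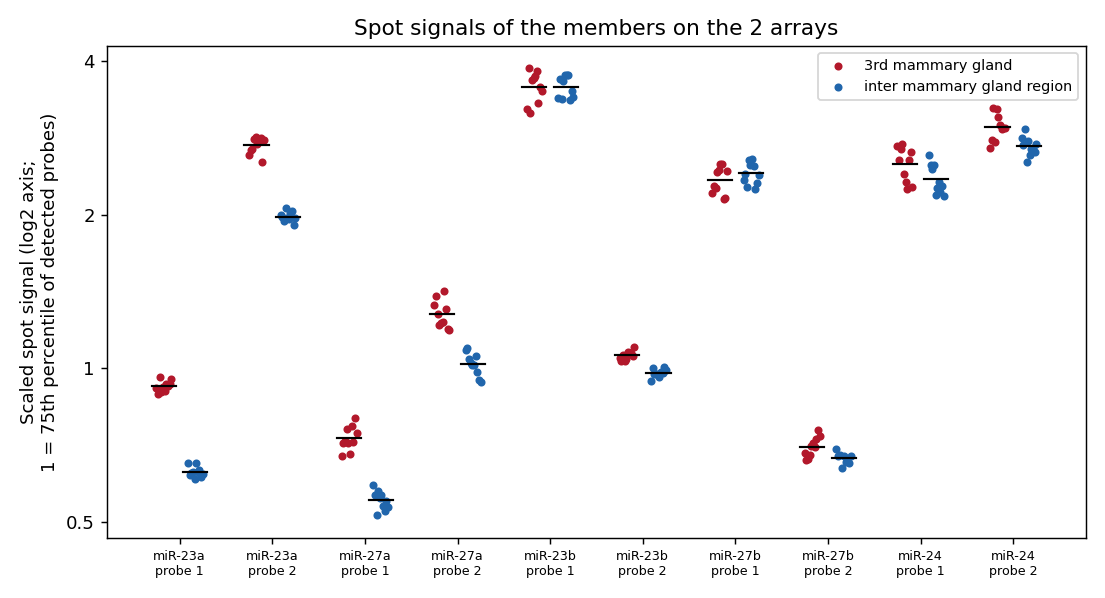
Scaled signal of every spot used, on a log2 axis, for both probes of each member in the gland (red) and the flank (blue), with black lines at the means. The red and blue spots are apart for all 4 probes of miR-23a and miR-27a, and apart for only 1 of the 4 probes of miR-23b and miR-27b.

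For miR-23a, signals before scaling averaged 724 ± 17.4 in the gland on the first probe and 450 ± 11.1 in the flank (SD over 10 spots each). Its second probe gave 2149 ± 80.4 and 1424 ± 31.8. After scaling, the dimmest gland spot of the first probe was at 0.888 and the brightest spot of the other region at 0.652, and for the second probe these were 2.53 and 2.06. No spot of one region therefore overlapped the other region, and 20 of 20 spots at the same position were brighter in the gland. The mean scaled signal was 1.83 in the gland and 1.30 in the flank.

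miR-27a, its neighbour in the a cluster, gave 573 ± 31.6 in the gland and 395 ± 16.9 in the flank on the first probe (SD over 10 spots each). The second probe gave 1004 ± 62.7 and 732 ± 37.2. The scaled spots did not overlap on either probe, with the dimmest gland spot at 0.673 against 0.589 on the first and 1.19 against 1.09 on the second. All 20 of 20 spots were brighter in the gland, and the mean scaled signal was 1.003 against 0.785.

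The b members showed overlapping spots on most probes. On the first probe of miR-23b the signal was 2798 ± 199 in the gland and 2558 ± 125 in the flank, and its scaled spots overlapped. On the dimmer second probe it was 833 ± 16.2 and 702 ± 12.9, and there the scaled spots were apart, the lowest of the gland at 1.034 and the highest of the other region at 1.004. After scaling, 15 of 20 spots of miR-23b were brighter in the gland, and the mean scaled signal was 2.31 against 2.27. For miR-27b the first probe gave 1838 ± 114 and 1731 ± 84.2 and the second 551 ± 24.9 and 479 ± 11.7 (9 spots in the flank, where an outlier spot was left out). Its spots overlapped on both probes, 8 of 19 were brighter in the gland, and the mean scaled signal was 1.52 against 1.54.

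miR-24 is the member whose probes cannot tell the clusters apart. Its probes gave 1978 ± 154 and 2335 ± 142 in the gland and 1688 ± 113 and 1958 ± 80.7 in the flank (SD over 10 spots each). The scaled spots of the regions overlapped on both probes, though 18 of 20 were brighter in the gland, and the mean scaled signal was 2.74 against 2.54.

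Ordered by log2 ratio the members ran miR-23a, miR-27a, miR-24, miR-23b and miR-27b. The step from miR-23a to miR-27a was 0.13 ± 0.030 and that from miR-27a to miR-24, 0.24 ± 0.038, each over 4 times its technical SE. That SE leaves out disagreement between the 2 probes of a member. The probes stood at 0.56 and 0.46 for miR-23a and at 0.41 and 0.32 for miR-27a. After quantile normalization the same 2 steps were 0.31 and 0.037, the latter within its technical SE. The step from miR-24 to miR-23b was smaller, 0.087 ± 0.042. The last step, from miR-23b to miR-27b, was 0.043 ± 0.042, or 1.02 times its technical SE. After quantile normalization these members stood further apart, at 0.22 and 0.10.

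**Figure D2:**
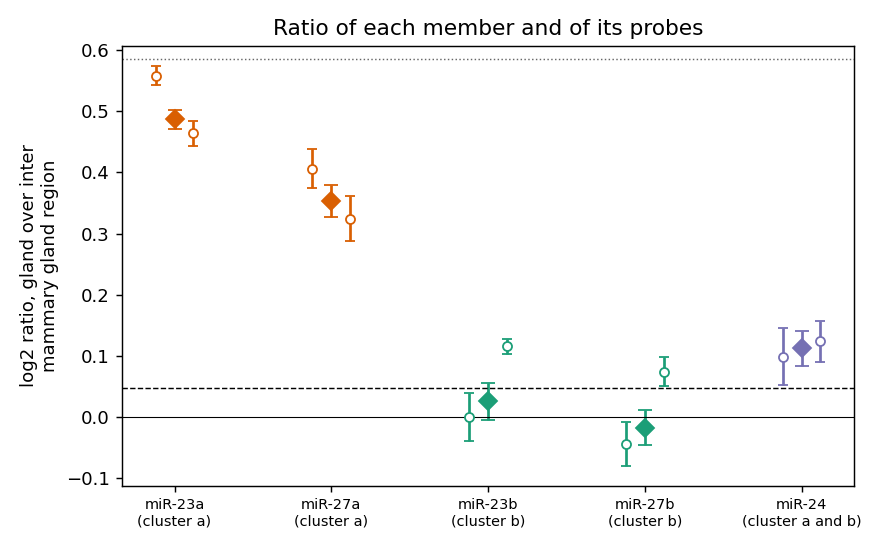
Log2 ratio of the gland over the flank for each member (diamonds) and each of its probes (open circles), with bars for the technical SE over spots, the dashed line at the median of all 284 miRNAs detected on both arrays and the dotted line at 1.5-fold. All 4 probes of miR-23a and miR-27a lie between 0.32 and 0.56, and all probes of the other members between -0.044 and 0.12.

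The clusters were compared by subtracting the log2 ratio of the b miRNA from that of its a partner, a difference in which any scaling factor between the arrays cancels. It was 0.46 ± 0.034 for miR-23 and 0.37 ± 0.039 for miR-27 (technical SE), so the gland-to-flank ratio of the a miRNA was 1.38 times that of the b miRNA for miR-23 and 1.29 times for miR-27. Quantile normalization, which does not act as a single factor, lowered the difference to 0.22 for miR-27 and to 0.41 for miR-23. Over the 4 combinations of an a probe with a b probe the difference ranged from 0.35 to 0.56 for miR-23 and from 0.25 to 0.45 for miR-27. With the scaling used here, probes of the same member differed by less than a and b did. The 2 probes of a member differed in log2 ratio by 0.095 for miR-23a, 0.082 for miR-27a, 0.116 for miR-23b, 0.117 for miR-27b and 0.025 for miR-24.

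Probe-to-probe spread over the rest of the array gave a scale for these differences. Among the 219 other miRNAs with 2 probes detected on both arrays, the probes of the same miRNA differed by a median of 0.075, and 95% of them by less than 0.304. The steps between neighbouring members, with the scaling used here, were all smaller than 0.304. A difference as large as that of miR-23 was seen between the probes of 3 of these miRNAs (1.37%), and one as large as that of miR-27 for 7 (3.20%). These shares hold for the scaling used here. They set single probes against differences between means of 2 probes, and are not error rates. After quantile normalization the difference of miR-27 was 0.22, below 0.304, and that of miR-23 was 0.41. This is the spread between probes within a pair of arrays and does not stand in for replicates of the tissue.

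In 4 of the 5 members, all but miR-24, the dimmer probe had the higher ratio. The same held for 149 of the 219 other miRNAs with 2 probes (68.0%). With probes paired by their order of brightness within each miRNA, the difference between a and b was 0.44 for the dimmer and 0.46 for the brighter probes of miR-23, and 0.33 and 0.37 for those of miR-27. The paired probes were not equally bright. In the gland the brighter ones averaged 2149 for miR-23a and 2798 for miR-23b, and 1004 for miR-27a and 1838 for miR-27b. A part of brightness in the differences was not tested.

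Partners named a and b also differed in other families, and a list of them was drawn up after the values above had been seen. Of 22 such pairs with both miRNAs detected on both arrays, the size of the difference had a median of 0.17 and ran from 0.030 for miR-20 to 0.58 for miR-148, where the b miRNA was the higher. The miR-23 pair had the second largest difference and the miR-27 pair the sixth. The a miRNA had the higher ratio in 10 of the 22 pairs, miR-23 and miR-27 among them. The letters are only names and do not stand for the same thing in different families. This count therefore says nothing about the direction seen in miR-23 and miR-27.

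**Figure D3:**
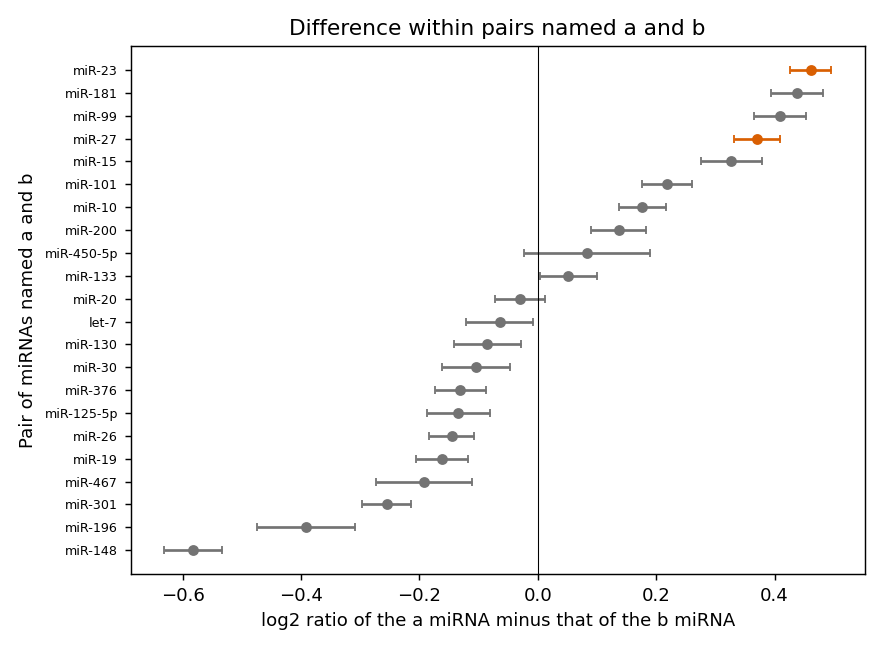
Log2 ratio of the a miRNA minus that of the b miRNA for 22 pairs detected on both arrays, with bars for the technical SE over spots. miR-23 (0.46) and miR-27 (0.37), in orange, lie in the upper part of a range that runs from -0.58 for miR-148 to 0.46 for miR-23.

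Against all miRNAs detected in both regions the changes were modest. None of the 5 members reached 1.5-fold in either direction, where 2.11% of the 284 miRNAs were that much higher in the gland and 9.15% lower. At the lower threshold of 0.322 on the log2 scale, 2 of the 5 members, miR-23a and miR-27a, were higher and 0 lower, beside 13.4% and 15.1% of the 284. miR-23a passed this threshold under all 11 alternatives, while miR-27a passed under 6 and fell short under 5, at 0.292 to 0.318. The median log2 ratio of the members was 0.11. 13 miRNAs had a higher ratio than miR-23a and 31 a higher one than miR-27a, while miR-24, miR-23b and miR-27b stood in the middle of the range, with 117, 152 and 171 miRNAs above them.

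The position of miR-23a relative to 1.5-fold depended on the scaling, and that of the others did not. Its log2 ratio was 0.62 with no scaling, 0.65 when all probes set the 75th percentile, 0.61 with the median of the detected probes and 0.63 after quantile normalization, each past 1.5-fold, as were 5.28%, 6.69%, 5.28% and 4.93% of the detected miRNAs. With the scaling used here 6 of the 284 were that much higher in the gland and 26 lower, a split that became 15 and 23 with no scaling or the median, 19 and 22 when all probes set the percentile and 14 and 22 after quantile normalization. With scaled total signals, which detected 323 miRNAs, it was 18 and 38, and after the normexp background correction 2 and 18. With the first 3 of these the ratios of all miRNAs rose together, to a median of 0.18, 0.21 and 0.17. Relative to the median of all detected miRNAs, miR-23a was higher by 0.44 and miR-27a by 0.31 with the scaling used here and with these 3. miR-23b, at -0.023, and miR-27b, at -0.065, lay just under that median. Over all 12 ways of processing, the values relative to that median ran from 0.43 to 0.46 for miR-23a, from 0.15 to 0.31 for miR-27a, from 0.064 to 0.11 for miR-24, from -0.023 to 0.046 for miR-23b and from -0.070 to -0.058 for miR-27b.

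**Figure D4:**
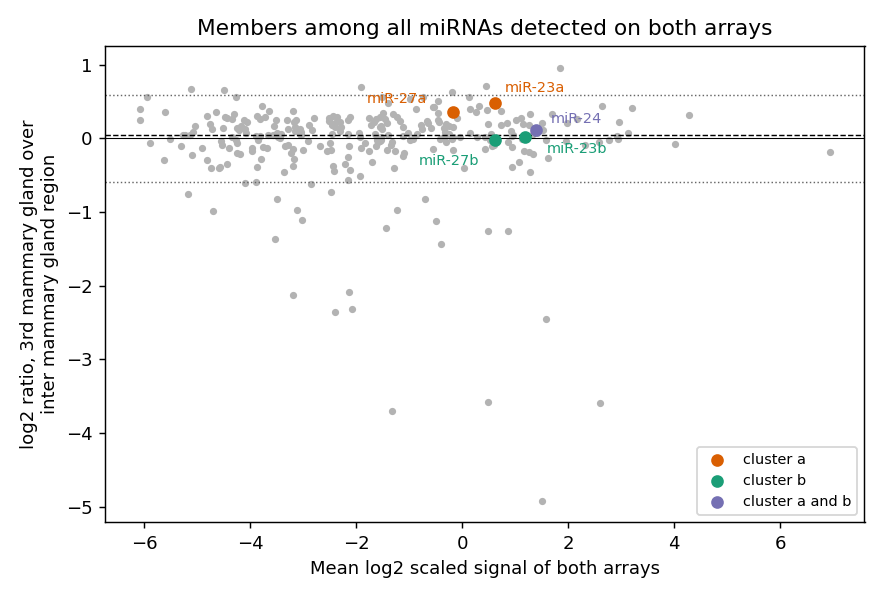
Log2 ratio of the gland over the flank against the mean log2 scaled signal for the 284 miRNAs detected on both arrays (grey), with the members in colour, the dashed line at the median of 0.048 and dotted lines at 1.5-fold in each direction. miR-23a and miR-27a lie near the upper edge of the main band, and miR-23b, miR-27b and miR-24 lie within it.

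The passenger strands, the arms of each hairpin that are mostly discarded, could in principle separate the 2 sources of miR-24. The array held 4 strands of these clusters, miR-24-1*, miR-24-2*, miR-27a* and miR-27b*, and 0 of them were detected in either region. The 2 strands of miR-24 have the same seed, in capitals here, and different 3′ parts. In RefSeq they are the 5p arms, and lie at chr13:63301213-63301235 and chr8:84208839-84208860.
mmu-miR-24-1*: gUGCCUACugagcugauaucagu
mmu-miR-24-2*: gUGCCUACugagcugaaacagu
For miR-24-1*, from the b cluster, the mean signal before scaling was 12.5 in the gland and 12.97 in the flank, with 0 of 20 and 0 of 19 spots well above background. For miR-24-2*, from the a cluster, it was 18.7 and 10.3, with 3 of 20 and 0 of 20 spots well above background. The brightest negative control spots were at 17.3 and 19.2, so these are signals at the edge of background and no fold is given. Feature Extraction's own call for a whole miRNA gave miR-24-1* as present on both arrays and miR-24-2* in the gland alone. miR-27a* and miR-27b* were at background, with mean signals from -1.17 to 1.74.

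No miRNA on the array other than miR-27a and miR-27b had the seed of miR-27 under its RefSeq name. miR-128, which is enriched in neurons, has a seed that overlaps it, shifted by 1 base. Its sequence is shown for that overlap, with its own seed in capitals.
mmu-miR-128: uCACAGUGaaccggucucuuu
It was lower in the gland, with a log2 ratio of -0.57 ± 0.029 (technical SE) from signals of 144 and 195 before scaling. With the same scaling miR-27a was higher in the gland, at 0.35, and miR-27b was near 0, at -0.017.

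The miRNAs with the nearest log2 ratio, out of 283, were taken as those most like each member over the 2 arrays, a likeness that rests on a single ratio. For miR-23a they were miR-182 (0.48), miR-200a (0.51) and miR-451 (0.44), and only 1 miRNA lay within its technical SE. For miR-27a they were miR-744 (0.35 ± 0.077), miR-26b (0.36 ± 0.023) and miR-431* (0.36 ± 0.12, technical SE). miR-744 and miR-431* were dim, with scaled signals in the gland of 0.045 and 0.023 against 1.003 for miR-27a, so their likeness is uncertain. Those of miR-24 were miR-101a, miR-467e and miR-127, those of miR-23b were miR-21, miR-136* and miR-154, and those of miR-27b were miR-29c, miR-337-5p and miR-543. Ratios near 0 are common, and 27 miRNAs lay within the technical SE of miR-23b and 23 within that of miR-27b.

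Some markers of the cell types that the tissue pieces could hold differed between the regions as well. Only those of striated muscle did so by 1.5-fold or more. The part of the markers in the ratios of the members was not tested. All 4 miRNAs of striated muscle (miR-1, miR-133a, miR-133b and miR-206) were at least 1.5-fold lower in the gland, with a median log2 ratio of -1.24 and a summed scaled signal of 2.09 against 5.02. The 7 epithelial miRNAs were detected in both regions, with a median of 0.34 and summed signals of 13.9 and 13.3. Within them the 5 members of the miR-200 family ran from 0.21 to 0.51, and the skin miRNAs miR-203 and miR-205 stood at -0.31 and -0.021. The endothelial miR-126-3p was at 0.046 and miR-126-5p at 0.21, with sums of 2.75 and 2.64. Of the 6 blood miRNAs 5 were detected, with a median of -0.060. The sums were 7.93 and 6.06, of which miR-451 alone made up 7.23 and 5.32. miR-451 was at 0.44 and miR-144 at 0.15, while miR-486 was at -0.39, miR-223 at -0.11 and miR-142-3p at -0.060. The 3 mesenchymal miRNAs (miR-199a-3p, miR-199a-5p and miR-214) had a median of 0.26 and sums of 35.1 and 28.8, and of the pair for smooth muscle and mural cells miR-143 alone was detected, at 0.25. The neural miR-124 and miR-9 were not detected in either region. In such tissue pieces, fewer cells of a type and less of a miRNA per cell cannot be told apart.

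**Figure D5:**
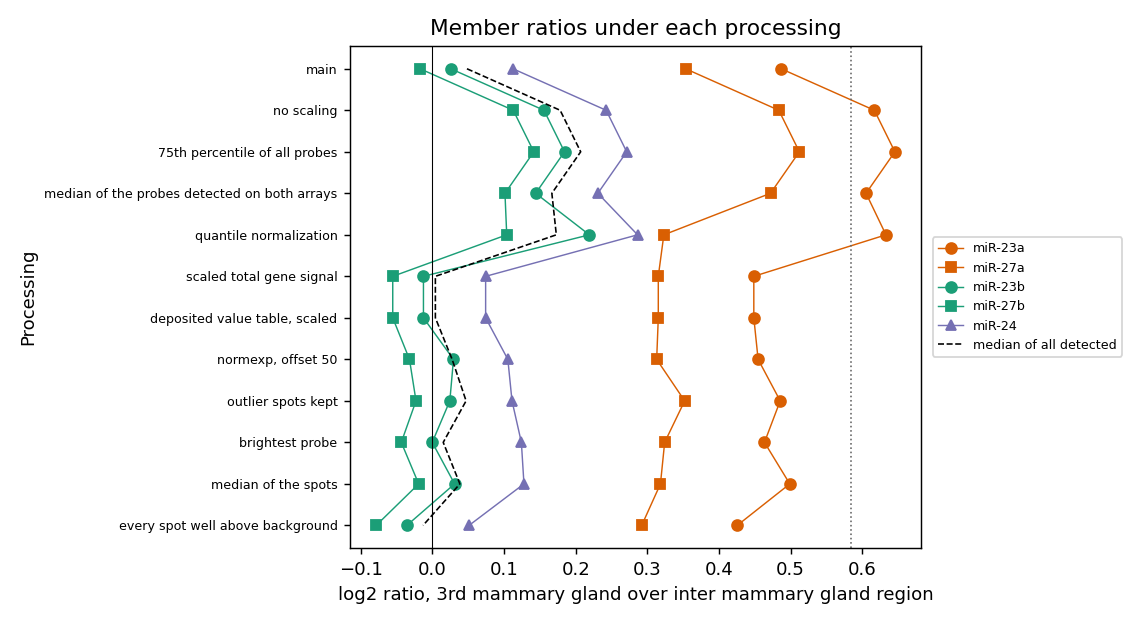
Log2 ratio of the gland over the flank for each member under each of 12 ways of processing, with the median of all detected miRNAs as a dashed line and 1.5-fold as a dotted line. miR-23a and miR-27a stay to the right of the other members in every row, miR-23a passes the dotted line in 4 rows, and the gap between miR-27a and miR-24 is smallest after quantile normalization (0.32 against 0.29).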

How the data were processed

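The authors scanned 1 array per region and quantified it with Feature Extraction (version 10.7.3.1 per the file headers). The deposited intensity of each spot is linear and background-subtracted, and is not normalized between arrays. A deposited table holds the software's total intensity per miRNA, which equals that of the scanner files for 696 of 696 miRNAs. The methods name GeneSpring GX for normalization, with no settings given in the sources used here.

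After removal of control and outlier spots, the remaining spots were averaged per probe, scaled to the 75th percentile over probes that both arrays detected, and averaged per miRNA. Technical SEs were propagated from the spread over spots to log2 ratios. They leave out the error of the scaling factor and the disagreement between probes of a miRNA. The planned normexp correction was run on the median pixel intensity with an offset of 50. The processing was tested on simulated spots made from the flank array. Errors there were taken relative to their median, so the scaling between arrays was not checked. The number of arrays, 1 per region, limits the precision.

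Described were the members, other products of their clusters, miRNAs of the same or an overlapping seed, the 3 nearest in log2 ratio and marker lists. The members and lists were chosen with earlier results of these data known. Mature sequences came from RefSeq (GRCm38.p6) for all members but mmu-miR-23b. The array's grid names another build and gives no coordinates, so those printed are RefSeq's alone. Python 3.11.15 (numpy 2.4.6, pandas 2.3.3, matplotlib 3.10.9) and R 4.3.3 (limma 3.58.1) were used.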

Additional observations from a re-analysis of the deposited data

How the results depend on the processing

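No paired analysis was possible because the gland and the flank were each hybridized to 1 array. Of 13 alternatives, 11 changed the processing and 2 the fold threshold. miR-23a and miR-27a were above 0 under all 11, with higher ratios than their b partners. The differences between a and b stayed within 1 technical SE of 0.46 (miR-23) and 0.37 (miR-27) except after quantile normalization, which gave 0.41 and 0.22, and after normexp, which gave 0.43 for miR-23. Settings that change only the scaling factor could not move these differences, so they are no check of them. Scaled total signals and the deposited table, which are equal, moved all members alike and add no check either. Keeping outlier spots could not move the difference of miR-23, whose probes had none. The brightest probe gave 0.46 (miR-23) and 0.37 (miR-27), and the median of the spots 0.47 and 0.34.

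Ratios that moved by more than their technical SE follow, on the log2 scale. With no scaling they were 0.62 (miR-23a), 0.48 (miR-27a), 0.24 (miR-24), 0.16 (miR-23b) and 0.11 (miR-27b). Scaling to the 75th percentile of all probes gave 0.65 (miR-23a), 0.51 (miR-27a), 0.27 (miR-24), 0.18 (miR-23b) and 0.14 (miR-27b). Scaling to the median over detected probes gave 0.61 (miR-23a), 0.47 (miR-27a), 0.23 (miR-24), 0.14 (miR-23b) and 0.10 (miR-27b). Quantile normalization gave 0.63 (miR-23a), 0.32 (miR-27a), 0.29 (miR-24), 0.22 (miR-23b) and 0.10 (miR-27b). Scaled total signals, equal to the scaled deposited table, gave 0.45 (miR-23a), 0.32 (miR-27a), 0.074 (miR-24), -0.013 (miR-23b) and -0.055 (miR-27b). Requiring every spot of a probe to be well above background gave 0.43 (miR-23a), 0.29 (miR-27a), 0.051 (miR-24), -0.036 (miR-23b) and -0.079 (miR-27b). This requirement and the first 3 change only the scaling factor and so move all members alike. Scaled total signals also moved all members alike. normexp gave 0.45 (miR-23a) and 0.31 (miR-27a), the brightest probe 0.46 and 0.32, and the median of the spots 0.32 (miR-27a). Outlier spots, when kept, moved no member by more than its technical SE. The median of the members was the value of miR-24 in each case.

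The number of members at least 1.5-fold apart, 0 with the scaling used here, was 1 (miR-23a) under the first 4 of these settings and 0 under the other 7. It was 2 at the lower threshold of 0.322 (log2) and 0 at 2-fold. The count at the lower threshold became 1 where miR-27a fell short, at 0.315 (scaled total signals and the deposited table), 0.313 (normexp), 0.318 (median of the spots) and 0.292 (every spot well above background). The cause of the shifts after quantile normalization and normexp was not tested.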
